A study of Arabidopsis thaliana with 12 samples.

Results

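The heat response of wild-type Arabidopsis thaliana leaves was read from 6 RNA-seq libraries of 12 in the series. The 6 were chosen by their labels: 3 libraries of wild-type (WT, Col-0) rosette leaves kept at 47 °C for 1 h, and 3 libraries of WT leaves without heat. All plants had grown in soil for 3 weeks at 23 °C with 16 h of light and 8 h of dark. The other 6 libraries are the same 2 conditions in atcyp18-2, a line named for a cyclophilin gene. They share no library with the WT comparison and are used here to share the estimate of the spread between replicates, to choose the transcript of each gene, in alternative fits, and for values set side by side. No label says that the WT control leaves were held for 1 h beside the heated ones, so an effect of heat and an effect of that hour cannot be told apart. Whether replicates were taken from different plants is not labelled, so the p-values reflect the spread of these libraries, which may be technical.

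At high temperature proteins unfold, and heat shock factors, transcription factors held inactive by chaperones, are released to bind heat shock elements in promoters and switch on chaperone genes. Damaged proteins that chaperones cannot refold are tagged with ubiquitin and broken down by the proteasome or by autophagy, the delivery of cell content to the vacuole in vesicles coated with ATG8. In leaves the same hours also bear on photosynthesis, sugar supply, water transport and growth, and the comparison was therefore read family by family beyond the heat shock proteins.

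One annotated transcript was used for each of 23160 genes, and 16629 genes passed the filter on low counts. In edgeR's quasi-likelihood test with Benjamini-Hochberg adjustment, 2200 genes (13.2% of those tested) were called higher and 1710 (10.3%) lower in heated WT leaves at an adjusted p below 0.05. Of these, 1434 of the higher and 1015 of the lower genes changed by at least 1 on the log2 scale, and 265 rose but 9 fell by at least 3. Leaving out 1 WT library at a time gave 1609 to 2267 higher and 1036 to 1708 lower genes. The lower count was 1036 without WT control 2 and 1058 without WT heat 2. Wherever leaving out 1 WT library moved a printed count of a family by over 1.5 times, the count without it is given, each library named being left out on its own. The 13.2% and 10.3% are the background against which each family is read below, and a call is always relative to the bulk of genes. Families were chosen with earlier results of these data known. Of 107 lists and families with at least 10 genes tested, 35 had a higher share at least 1.5 times the background. A lower share at least 1.5 times the background was found in 37, and 42 had neither. In CPM, which were scaled as for the test, all 3 heated WT libraries lay above all 3 controls in 18.6% of genes tested. They lay below in 19.2%, so groups without overlap were not rare. The genes named for the largest rises and falls were picked among genes without overlap. Scaling by library totals instead moved the median log2 fold change of all genes to -0.77, against -0.02, and gave 799 higher and 7498 lower genes.

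The WT libraries held 9338911 to 11704373 reads on the transcripts used. Chloroplast transcripts took 59.9% to 69.7% of these and nuclear transcripts 28.7% to 38.8%, so that 2732354 to 4275780 reads per library came from nuclear genes. Leaf identity was checked with markers of other organs: 1 of 6 root marker genes and 0 of 6 flower and seed marker genes had enough reads to be tested. The root marker, PYK10 (AT3G09260), a beta-glucosidase, had 9.22, 11.7 and 20.8 CPM in heated WT leaves, against 53.5, 38.8 and 22.7 CPM in WT control leaves, and its part in other results was not tested. Of 7 guard cell and 9 vein marker genes tested, 1 of each rose and 1 of each fell. Among guard cell markers the lower count was 0 without WT heat 1, WT heat 2, WT control 1, WT control 2 or WT control 3 and 2 without WT heat 3, and among vein markers 0 without WT heat 1, WT heat 2, WT control 1 or WT control 2. Fewer cells of a type and less RNA per cell cannot be told apart in such bulk samples. A component of the variation within groups, which held 53.9% of it, set WT heat 3 apart from WT heat 1 and 2 and WT control 3 apart from WT control 1 and 2, and it moved with the share of psbA reads. The summed CPM of the 18 small heat shock proteins was 11109, 11338 and 13874 in WT heat 1, 2 and 3, against 19.5, 16.8 and 19.1 in WT control 1, 2 and 3, so both libraries that stood apart lay with their labelled group on this measure. Results that turn on it are given with and without those libraries.

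**Figure D1:**
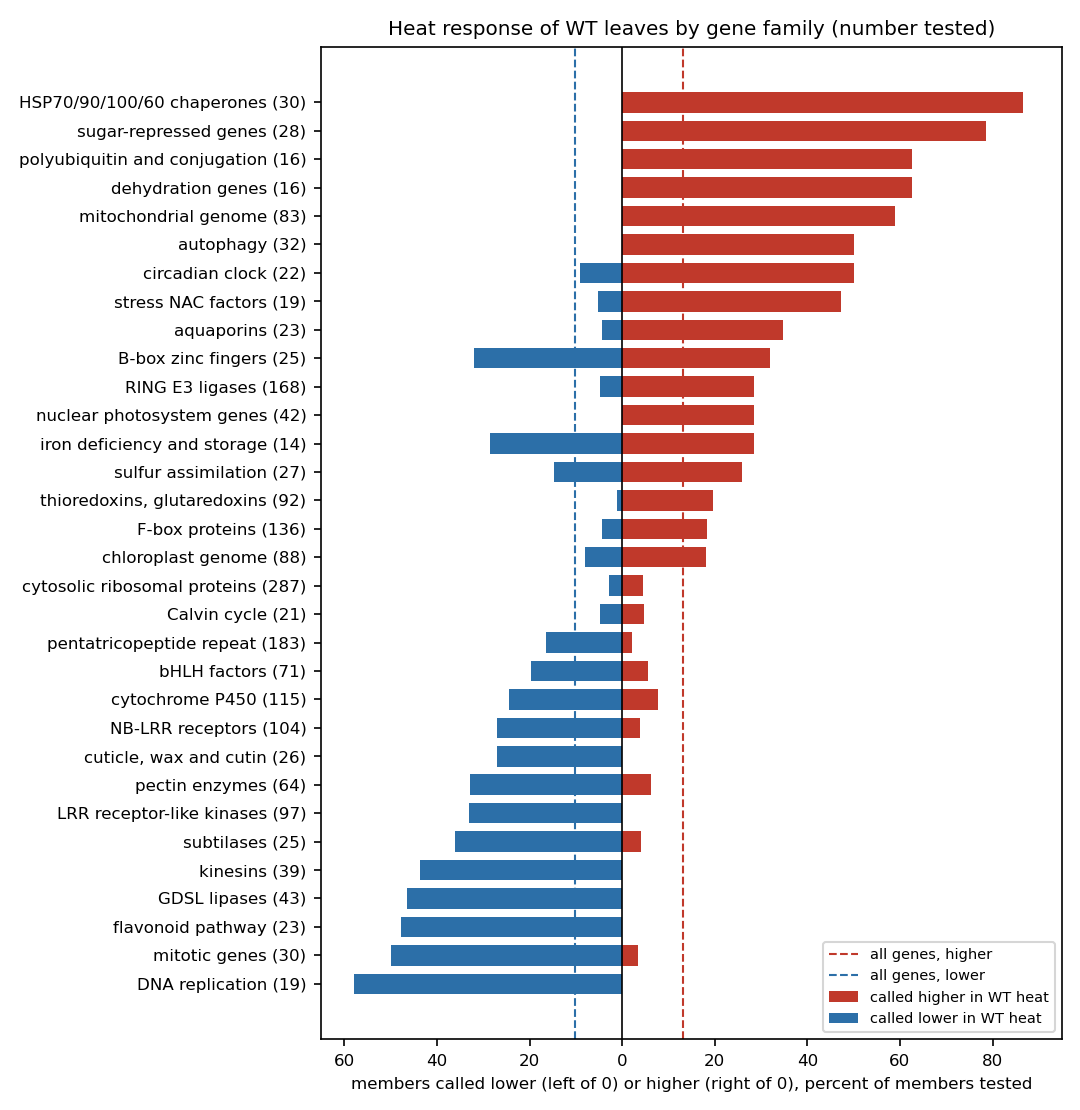
Percent of the tested members of each gene family called higher (red, right of 0) or lower (blue, left of 0) in WT heat than in WT control leaves, with the number tested in brackets; dashed lines mark the 13.2% and 10.3% of all genes. Chaperones, sugar-repressed genes and ubiquitin genes stand far right of the line, and replication, mitotic and GDSL lipase genes far left.

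Some genes outside the classical heat shock proteins rose as steeply as those. As a scale, 16 of 18 small heat shock proteins (median log2 fold change 11.47) and 26 of 30 large chaperones (median 2.94) rose. BAG6 (AT2G46240), a cochaperone of the BAG family, had 2946, 3311 and 3859 CPM in heated WT leaves, against 1.76, 1.205 and 0.889 CPM in WT control leaves. The lowest heated library held over 1000 times the CPM of the highest control library. BAG6 rose by 11.25 ± 0.40 (SE) on the log2 scale (edgeR adjusted p = 5.95e-10). APX2 (AT3G09640), a heat-inducible ascorbate peroxidase that removes hydrogen peroxide, had 176, 221 and 162 CPM in heated WT leaves and no read in any of the 3 WT control libraries. Set against a floor of 3 reads over the control group it was at least 2568-fold higher. AT1G71000, annotated as a DnaJ-domain chaperone, had 147, 153 and 122 CPM in heated leaves and likewise no control read, and was at least 1947-fold higher. AT1G03070, a Bax inhibitor-1 family protein, had 8525 reads over the heated libraries and 3 over the control libraries, a ratio of 4642 (95% interval 1588 to 22520.0, counting error only).

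Other leading genes act outside protein folding. EGY3 (AT1G17870), a chloroplast membrane protein related to intramembrane proteases, had 1054, 1222 and 819 CPM in heated WT leaves, against 2.299, 2.77 and 2.67 CPM in WT control leaves. PDX1.2 (AT3G16050), a non-catalytic relative of the vitamin B6 synthase, had 712, 736 and 429 CPM in heated WT leaves, against 3.04, 3.25 and 3.73 CPM in WT control leaves. Both groups lay apart in each of the 6 libraries, with log2 fold changes of 8.60 ± 0.24 for EGY3 (edgeR adjusted p = 4.88e-11) and 7.52 ± 0.29 for PDX1.2 (edgeR adjusted p = 1.30e-09). HSA32 (AT4G21320), which was first described for keeping acquired heat tolerance over time, rose by 7.99 ± 0.34 (edgeR adjusted p = 2.70e-09) on the log2 scale. AT5G12110, annotated as the elongation factor 1-beta 1 of translation, rose by 7.01 ± 0.26 (edgeR adjusted p = 1.01e-09), while 2 of 28 translation factors in all were called higher and 1 lower. Among translation factors the higher count was 5 without WT control 3, and the lower count 0 without WT heat 1, WT heat 2, WT control 1 or WT control 2.

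Heat shock factors and other regulators of the heat response rose in 12 of 19, none fell, and the median was 3.04 (2.31 under library totals). HSFA2 (AT2G26150), a heat shock factor that is itself switched on by heat and prolongs the response, had 813, 824 and 747 CPM in heated WT leaves, against 0.879, 0.964 and 1.24 CPM in WT control leaves. The control libraries held about 1 CPM or less on average. HSFA2 rose by 9.50 ± 0.28 (SE) on the log2 scale (edgeR adjusted p = 7.32e-11). In the endoplasmic reticulum, where secreted proteins fold, 11 of 27 genes of the unfolded protein response rose and 1 fell (median 0.33, -0.42 under library totals). Among these genes the lower count was 0 without WT heat 2 or WT control 2. BZIP28 (AT3G10800), a membrane-held factor that starts this response, had 36.9, 36.03 and 30.9 CPM in heated WT leaves, against 7.57, 5.66 and 9.07 CPM in WT control leaves. BZIP28 rose by 2.21 ± 0.19 (SE) on the log2 scale (edgeR adjusted p = 2.97e-06). BIP1 (AT5G28540), the HSP70 of the endoplasmic reticulum, had 221, 223 and 202 CPM in heated WT leaves, against 66.9, 52.6 and 38.6 CPM in WT control leaves. BIP1 rose by 2.03 ± 0.21 (SE) on the log2 scale (edgeR adjusted p = 1.73e-05). DER1 (AT4G29330), which helps to export misfolded proteins for breakdown, had 78.9, 92.2 and 50.2 CPM in heated WT leaves, against 5.21, 4.88 and 6.3999 CPM in WT control leaves. DER1 rose by 3.73 ± 0.24 (SE) on the log2 scale (edgeR adjusted p = 1.60e-07).

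Splicing factors of the SR type, which choose splice sites, were called higher in 9 of 19 and lower in none, with a median of 0.54 (-0.19 under library totals). SR45a (AT1G07350), an SR-like factor, had 375, 404 and 304 CPM in heated WT leaves, against 11.5, 9.88 and 14.1 CPM in WT control leaves. SR30 (AT1G09140) had 152, 174 and 114 CPM in heated WT leaves, against 11.4, 11.4 and 12.5 CPM in WT control leaves. The heated libraries of both stood above all controls, with log2 fold changes of 4.93 ± 0.20 for SR45a (edgeR adjusted p = 1.79e-09) and 3.63 ± 0.20 for SR30 (edgeR adjusted p = 3.14e-08). A single transcript per gene was used, so a change in the choice of splice form was not measured.

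The promoters of 3 risers, each with a heat shock element in the 250 bases before the gene start, are shown because this element was rare in the genome and the genes differ in function: a DnaJ chaperone, GolS1 (AT2G47180), which makes galactinol for raffinose sugars, and PRR7 (AT5G02810), a repressor in the circadian clock. Bases are from RefSeq's TAIR10.1 assembly, 5′ to 3′ on the gene's strand, matched by locus identifier; the build behind the counts is not given in the sources used here. Capitals mark the heat shock element as searched, the 3 units GAA, TTC and GAA with 2 free bases between neighbours, on either strand, and in AT1G71000 a pair of matches overlap. The windows are chr1:26770178-26770427 for AT1G71000, chr2:19370479-19370728 for GolS1 and chr5:642031-642280 for PRR7, all on the minus strand.
AT1G71000: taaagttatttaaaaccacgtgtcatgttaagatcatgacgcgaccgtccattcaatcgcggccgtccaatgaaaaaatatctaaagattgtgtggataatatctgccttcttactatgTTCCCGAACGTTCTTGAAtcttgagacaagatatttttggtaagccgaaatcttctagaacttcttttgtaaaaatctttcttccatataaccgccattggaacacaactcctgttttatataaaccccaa
GolS1: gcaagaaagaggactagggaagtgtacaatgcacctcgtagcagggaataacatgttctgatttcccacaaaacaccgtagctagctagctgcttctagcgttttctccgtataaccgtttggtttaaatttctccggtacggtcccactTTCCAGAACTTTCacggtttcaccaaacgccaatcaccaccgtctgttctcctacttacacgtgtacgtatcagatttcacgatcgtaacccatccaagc
PRR7: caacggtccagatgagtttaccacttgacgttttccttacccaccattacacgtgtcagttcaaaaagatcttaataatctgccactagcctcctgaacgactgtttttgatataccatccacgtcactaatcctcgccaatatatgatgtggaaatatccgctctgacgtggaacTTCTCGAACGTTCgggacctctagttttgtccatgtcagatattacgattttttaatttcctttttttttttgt

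The 13-base heat shock element was found on either strand in 75 of 16457 promoters of tested nuclear genes (0.456%). It stood in 28 of 2135 promoters of genes that rose (1.31%), in 2 of 1703 of genes that fell and in 45 of 12619 of genes not called (0.357%). Among genes that rose by at least 3 on the log2 scale it stood in 12 of 258 (4.65%). Most classical heat shock genes lacked a match in this strict search: it stood in 2 of 18 promoters of small heat shock proteins and 0 of 30 of large chaperones. In looser searches for a pair of units, GAANNTTC stood in 4 of 18 and 2 of 30 of these (22.2% and 6.67%), against 9.36% of all. The pair TTCNNGAA stood in 5 of 18 and 2 of 30 (27.8% and 6.67%), against 7.58% of all. The 13-base element stood in 0 of 28 promoters of sugar-repressed genes and 1 of 19 of replication genes, a family with many lower calls. The ABRE-like letters ACGTGNC, known from abscisic acid responses, were in 14.2% of promoters of genes that rose, 8.28% of those that fell and 9.87% of all. The G-box CACGTG, which many bZIP and bHLH factors bind and which can overlap the ABRE-like letters, was in 10.9%, 7.11% and 7.53% of the same sets. A match is a match of letters and not a measured binding site, and these shares carry no test.

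Among genes of protein breakdown, those of ubiquitin and its conjugation had many higher calls and those of the proteasome few. In the list of polyubiquitin and ubiquitin-conjugation genes 10 of 16 rose, none fell, and the median log2 fold change was 0.57 (-0.20 under library totals). Over all 40 tested genes with the domain of ubiquitin-conjugating enzymes the move was weaker: 13 rose and 2 fell (median 0.29, -0.46 under library totals). UBQ10 (AT4G05320), a polyubiquitin gene that supplies ubiquitin, had 1697, 1727 and 1253 CPM in heated WT leaves, against 284, 266 and 294 CPM in WT control leaves. UBQ14 (AT4G02890) had 813, 797 and 558 CPM in heated WT leaves, against 83.1, 83.3 and 103 CPM in WT control leaves. In both genes every heated library stood above every control library, with log2 fold changes of 2.47 ± 0.17 for UBQ10 (edgeR adjusted p = 3.20e-07) and 3.01 ± 0.20 for UBQ14 (edgeR adjusted p = 1.87e-07); their near-identical repeats make the split of reads between them uncertain. UBC11 (AT3G08690), a ubiquitin-conjugating enzyme, rose by 2.69 ± 0.22 (edgeR adjusted p = 1.78e-06), and CHIP (AT3G07370), a ubiquitin ligase that binds HSC70, by 1.42 ± 0.25 (edgeR adjusted p = 0.0014). CHIP and BAG6 were the 2 members called higher of 9 in the list of BAG cochaperones and quality-control ligases, whose median was -0.12 (-0.90 under library totals). Its 2 lower members, the cochaperones BAG1 (AT5G52060) and BAG7 (AT5G62390), fell by 1.06 and 0.56 on the log2 scale (edgeR adjusted p = 8.46e-05 and 0.012), and the lower count was 1 without WT control 2. The proteasome itself stood near or below the background, with 3 of 42 genes of that annotation higher, and 1 of those 3, FUS5 (AT1G02090), belongs to the COP9 signalosome (log2 fold change 2.88 ± 0.15 SE, edgeR adjusted p = 1.99e-08).

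Ubiquitin ligases choose the proteins to be tagged, and their families differed in the share called higher. Of 168 tested RING-type genes 48 rose and 8 fell, a higher share of 28.6% beside the 13.2% of all genes, and the median was 0.31 (-0.43 under library totals). Among RING genes the lower count was 5 without WT control 2. AT1G26800 had 85.7, 84.4 and 62.9 CPM in heated WT leaves, against 0.946, 1.39 and 0.533 CPM in WT control leaves. AT1G14200 had 211, 206 and 113 CPM in heated WT leaves, against 5.21, 4.52 and 3.64 CPM in WT control leaves. Heated and control libraries of both RING genes were far apart, with log2 fold changes of 6.18 ± 0.27 for AT1G26800 (edgeR adjusted p = 3.97e-09) and 5.28 ± 0.29 for AT1G14200 (edgeR adjusted p = 2.97e-08). Among 136 F-box genes, the substrate adaptors of SCF ligases, 25 rose and 6 fell (median 0.22, -0.53 under library totals). Of 24 U-box ligases 3 rose and 1 fell (median -0.03), near the background, the higher count being 1 without WT heat 3 or WT control 3 and the lower count 2 without WT heat 3. Among F-box genes the higher count was 16 without WT heat 2, and the lower count 3 without WT heat 1. FBS1 (AT1G61340), a stress-induced F-box gene, had 29.7, 34.8 and 31.02 CPM in heated WT leaves, against 1.42, 0.843 and 0.978 CPM in WT control leaves. FBS1 rose by 4.78 ± 0.21 (SE) on the log2 scale (edgeR adjusted p = 4.51e-09). FBP7 (AT1G21760), an F-box protein known for keeping up translation under temperature stress, rose by 1.91 ± 0.16 (edgeR adjusted p = 2.67e-06).

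Autophagy genes rose in 16 of 32 tested members, with none lower and a median of 0.70 (-0.07 under library totals). ATG8E (AT2G45170), which codes for the vesicle-coat protein ATG8, had 16.04, 18.2 and 20.2 CPM in heated WT leaves, against 2.43, 2.41 and 0.978 CPM in WT control leaves. ATG13 (AT3G49590), a regulator of the kinase that starts autophagy, had 25.4, 22.97 and 16.3 CPM in heated WT leaves, against 3.31, 3.19 and 5.51 CPM in WT control leaves. Neither gene overlapped between groups, with log2 fold changes of 3.15 ± 0.24 for ATG8E (edgeR adjusted p = 8.22e-07) and 2.42 ± 0.26 for ATG13 (edgeR adjusted p = 1.82e-05). APG8A (AT4G21980), ATG8F (AT4G16520) and ATG8H (AT3G06420), further ATG8 genes of which the last 2 were picked after their values were seen, rose by 2.06, 1.11 and 2.51 on the log2 scale (edgeR adjusted p = 1.72e-04, 0.0012 and 0.0038). NBR1 (AT4G24690), a receptor that brings ubiquitin-tagged cargo to ATG8, had 106, 112 and 63.05 CPM in heated WT leaves, against 43.9, 38.7 and 67.1 CPM in WT control leaves. Its groups overlapped, since WT heat 3 lay below WT control 3. NBR1 rose by 0.91 ± 0.29 (SE) on the log2 scale (edgeR adjusted p = 0.037), a call that was lost when any of WT heat 1, WT heat 2, WT control 1 or WT control 2 was left out (adjusted p up to 0.14).

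The family of A20/AN1 zinc fingers, stress-associated proteins some of which act as ubiquitin ligases, was noticed in a scan over 459 Pfam domain families and is therefore described only. Such shares were common in that scan: 112 families had a higher share, and 154 a lower share, at least 1.5 times the background. Among A20/AN1 members 7 of 11 tested were called higher, with a median log2 fold change of 0.83 (0.06 under library totals). AT2G27580 had 37.3, 39.03 and 20.99 CPM in heated WT leaves, against 2.91, 3.61 and 4.79996 CPM in WT control leaves. PMZ (AT3G28210) had 7.89, 5.704 and 16.7 CPM in heated WT leaves, against 0.676, 0.241 and 0 CPM in WT control leaves. Both were named after their values were seen, and neither overlapped between groups, with log2 fold changes of 3.08 ± 0.29 for AT2G27580 (edgeR adjusted p = 5.34e-06) and 4.68 ± 0.68 for PMZ (edgeR adjusted p = 2.92e-04). A second family seen in that scan, small proteins with a cysteine-rich transmembrane module, had 6 of 10 members called higher (median 1.83, 1.06 under library totals), among them AT4G33660 with 77.5, 83.8 and 49.8 CPM in heated WT leaves, against 2.91, 3.79 and 6.13 CPM in WT control leaves. AT4G33660 rose by 4.03 ± 0.30 (SE) on the log2 scale (edgeR adjusted p = 7.04e-07).

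**Figure D2:**
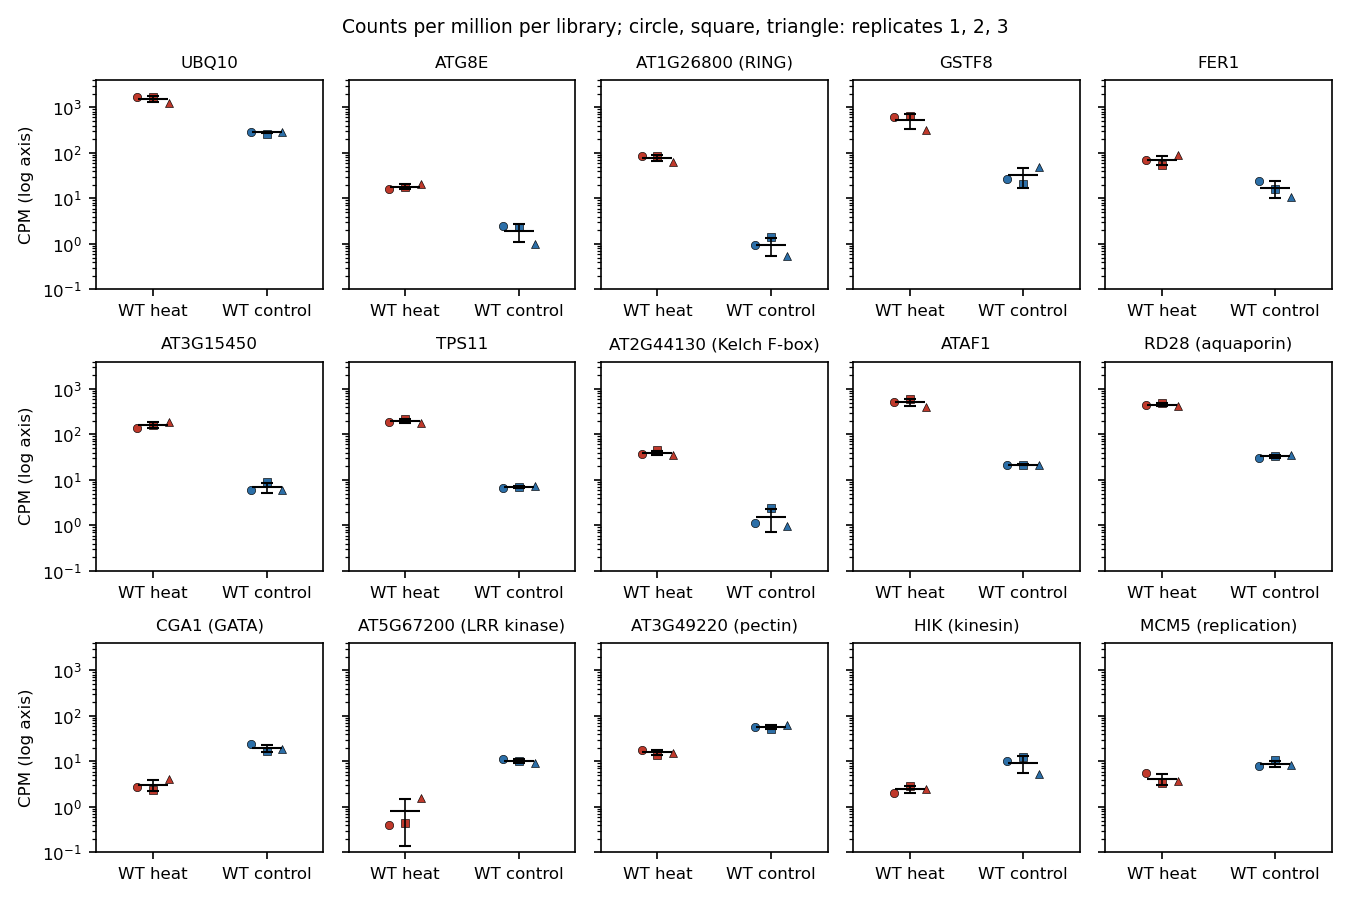
CPM of 15 genes in each WT library on a log axis, WT heat (red) left of WT control (blue); points are replicates, the line is the mean and the bars are SD (n = 3). The 3 heated libraries lie above or below all 3 control libraries in each of these genes, as they do in 18.6% (above) and 19.2% (below) of all genes tested.

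Enzymes that remove peroxides and toxic compounds rose in part. Of 16 ascorbate peroxidases, catalases and superoxide dismutases 5 rose (median 0.34, -0.41 under library totals), and the count was 3 without WT heat 2, WT heat 3 or WT control 2. Of 11 zinc finger regulators and markers of oxidative stress 7 rose (median 1.43, 0.76 under library totals). APX1 (AT1G07890), the main cytosolic ascorbate peroxidase, had 266, 292 and 202 CPM in heated WT leaves, against 97.9, 75.05 and 106 CPM in WT control leaves. APX1 rose by 1.45 ± 0.22 (SE) on the log2 scale (edgeR adjusted p = 4.15e-04). ZAT6 (AT5G04340), a C2H2 zinc finger regulator of stress genes, rose by 4.29 ± 0.32 (edgeR adjusted p = 6.36e-07), and AOX1A (AT3G22370), the mitochondrial alternative oxidase that bypasses part of the electron transport chain, by 1.99 ± 0.18 (edgeR adjusted p = 3.74e-06). Glutathione S-transferases, which couple glutathione to toxic compounds, were split, with 7 of 35 higher and 3 lower. GSTF8 (AT2G47730) had 627, 661 and 315 CPM in heated WT leaves, against 26.2, 21.1 and 49.9 CPM in WT control leaves. GSTU5 (AT2G29450) had 385, 429 and 585 CPM in heated WT leaves, against 53.4, 50.2 and 30.3 CPM in WT control leaves. Both stood apart between groups in all 6 libraries, with log2 fold changes of 4.04 ± 0.46 for GSTF8 (edgeR adjusted p = 3.09e-05) and 3.38 ± 0.31 for GSTU5 (edgeR adjusted p = 5.08e-06). Thioredoxins and glutaredoxins, small proteins that reduce disulfide bonds, rose in 18 of 92 tested members and fell in 1 (median 0.32, -0.44 under library totals). Among thioredoxins and glutaredoxins the higher count was 10 without WT control 2 and 11 without WT control 1, and the lower count 0 without WT heat 1, WT heat 2 or WT control 1 and 2 without WT control 3. TPX1 (AT1G65980), a peroxidase that draws its electrons from thioredoxin, had 138, 149 and 108 CPM in heated WT leaves, against 24.3, 21.7 and 24.98 CPM in WT control leaves. TPX1 rose by 2.47 ± 0.18 (SE) on the log2 scale (edgeR adjusted p = 4.83e-07).

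Ferritins, the protein cages that store iron, rose, and some genes of iron deficiency fell. FER1 (AT5G01600) had 69.1, 55.1 and 88.3 CPM in heated WT leaves, against 24.1, 16.3 and 10.9 CPM in WT control leaves. FER4 (AT2G40300) had 37.96, 41.3 and 29.4 CPM in heated WT leaves, against 11.8, 12.8 and 12.7 CPM in WT control leaves. FER3 (AT3G56090) had 46.8, 41.3 and 41.4 CPM in heated WT leaves, against 15.01, 13.97 and 19.6 CPM in WT control leaves. The 3 ferritins did not overlap between groups, with log2 fold changes of 2.04 ± 0.27 for FER1 (edgeR adjusted p = 1.15e-04), 1.54 ± 0.18 for FER4 (edgeR adjusted p = 3.39e-05) and 1.41 ± 0.20 for FER3 (edgeR adjusted p = 2.55e-04). AT2G30766, a small gene listed among those of iron deficiency, had 2.67, 2.102 and 4.35 CPM in heated WT leaves, against 23.8, 19.5 and 10.9 CPM in WT control leaves. AT2G30766 fell by 2.48 ± 0.46 (SE) on the log2 scale (edgeR adjusted p = 0.0017). PYE (AT3G47640), a bHLH regulator of the iron deficiency response, and NAS4 (AT1G56430), which makes the metal chelator nicotianamine, were also called lower (log2 fold changes of -0.90 ± 0.27 for PYE (edgeR adjusted p = 0.028) and -1.01 ± 0.32 for NAS4 (edgeR adjusted p = 0.039)). Both calls were lost when WT heat 1, WT heat 3, WT control 2 or WT control 3 was left out, with edgeR adjusted p up to 0.1 for PYE and 0.13 for NAS4. In all, 4 of 14 tested genes of the iron list rose and 4 fell. Among iron genes the lower count was 2 without WT heat 3, WT control 2 or WT control 3.

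Genes of water deficit and water transport rose in part. Dehydration genes were higher in 10 of 16 tested members with a median of 1.70 (0.96 under library totals). GolS1 had 806, 884 and 1034 CPM in heated WT leaves, against 19.9, 5.36 and 2.49 CPM in WT control leaves, with WT control 1 above the other control libraries. GolS1 rose by 6.60 ± 0.70 (SE) on the log2 scale (edgeR adjusted p = 1.78e-05). DIN10 (AT5G20250), a raffinose synthase, had 72.6, 66.4 and 84.03 CPM in heated WT leaves, against 19.5, 17.9 and 22.4 CPM in WT control leaves, a tight pair of groups. DIN10 rose by 1.90 ± 0.15 (SE) on the log2 scale (edgeR adjusted p = 1.10e-06). COR47 (AT1G20440), a dehydrin that protects membranes and proteins, had 121, 115 and 406 CPM in heated WT leaves, against 16.4, 19.3 and 5.96 CPM in WT control leaves, and WT heat 3 stood well above the other heated libraries. COR47 rose by 3.93 ± 0.69 (SE) on the log2 scale (edgeR adjusted p = 0.0012).

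Aquaporins, the membrane channels for water, were called higher in 8 of 23 tested genes and lower in 1, with a median of 0.30 (-0.43 under library totals). Among aquaporins the higher count was 4 without WT heat 1, WT heat 2, WT control 1 or WT control 2, and the lower count 3 without WT heat 1. RD28 (AT2G37180), a plasma membrane channel, had 449.8, 493 and 413 CPM in heated WT leaves, against 29.9, 33.4 and 35.4 CPM in WT control leaves. PIP2B (AT2G37170) had 209, 234 and 253 CPM in heated WT leaves, against 42.9, 49.6 and 46.3 CPM in WT control leaves. Both kept all heated above all control libraries, with log2 fold changes of 3.78 ± 0.16 for RD28 (edgeR adjusted p = 3.31e-09) and 2.33 ± 0.14 for PIP2B (edgeR adjusted p = 6.25e-08), and since their sequences are nearly alike, reads may be split between them. GAMMA-TIP (AT2G36830), a channel of the vacuole membrane, had 349, 374 and 232 CPM in heated WT leaves, against 53.2, 53.8 and 124 CPM in WT control leaves; its groups were apart although WT control 3 lay above the other 2 controls. GAMMA-TIP rose by 2.05 ± 0.36 (SE) on the log2 scale (edgeR adjusted p = 0.0013). NIP6;1 (AT1G80760), a boron channel, fell (log2 fold change -0.93 ± 0.21 SE, edgeR adjusted p = 0.0073).

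The core of abscisic acid signalling, the hormone of water deficit, was mixed, with 7 of 23 genes higher and 3 lower. SNRK2.3 (AT5G66880), a kinase activated by the hormone, had 25.1, 27.5 and 33.9 CPM in heated WT leaves, against 2.43, 2.35 and 2.22 CPM in WT control leaves. ABI1 (AT4G26080), a phosphatase that holds such kinases back, had 35.8, 42.6 and 29.9 CPM in heated WT leaves, against 12.1, 13.9 and 16.98 CPM in WT control leaves. Positive and negative parts of the pathway thus both rose, with log2 fold changes of 3.58 ± 0.20 for SNRK2.3 (edgeR adjusted p = 4.34e-08) and 1.33 ± 0.19 for ABI1 (edgeR adjusted p = 2.28e-04).

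Genes that sugar represses and darkness induces were among the lists with the largest shares called. Since the lists were chosen with earlier results of these data known, this rank carries no test. 22 of 28 tested members rose, none fell, and the median log2 fold change was 1.79 (1.08 under library totals). AT3G15450, annotated as an aluminium-induced protein and widely used as a marker of sugar starvation, had 137, 157 and 187 CPM in heated WT leaves, against 6.02, 8.97 and 5.87 CPM in WT control leaves. The lowest heated library was more than 10 times the highest control library. AT3G15450 rose by 4.51 ± 0.27 (SE) on the log2 scale (edgeR adjusted p = 8.75e-08). ASN1 (AT3G47340), the dark-induced asparagine synthetase that stores nitrogen when carbon is short, had 36.8, 44.1 and 86.96 CPM in heated WT leaves, against 11.2, 5.78 and 11.02 CPM in WT control leaves, with WT heat 3 the highest. ASN1 rose by 2.58 ± 0.38 (SE) on the log2 scale (edgeR adjusted p = 3.28e-04). bZIP1 (AT5G49450), a transcription factor of the starvation response, had 8.82, 10.8 and 12.6 CPM in heated WT leaves, against 1.15, 1.26 and 1.24 CPM in WT control leaves. bZIP1 rose by 3.07 ± 0.23 (SE) on the log2 scale (edgeR adjusted p = 7.09e-07). The catalytic subunit KIN10 (AT3G01090) of SnRK1, the kinase that sets off this response and acts mainly through its activity, had 14.6, 17.9 and 14.97 CPM in heated WT leaves, against 11.9, 13.7 and 15.1 CPM in WT control leaves, with overlapping groups. KIN10 was not called (log2 fold change 0.22 ± 0.16 SE, edgeR adjusted p = 0.36), while library totals gave -0.52 and a call (edgeR adjusted p = 0.03).

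Genes that make or remove the sugar signal trehalose 6-phosphate were split, with 5 of 16 higher and 4 lower and a median of 0.20 (-0.59 under library totals). Among these genes the lower count was 0 without WT control 2, 1 without WT heat 1 or WT control 1 and 2 without WT heat 2. TPS11, TPS8 and TPS9, class II relatives of the enzyme that makes the signal, were among the higher ones. TPS11 (AT2G18700) had 191, 221 and 179.7 CPM in heated WT leaves, against 6.69, 7.05 and 7.29 CPM in WT control leaves. TPS8 (AT1G70290) had 125, 121 and 117 CPM in heated WT leaves, against 8.32, 11.4 and 6.84 CPM in WT control leaves. TPS9 (AT1G23870) had 46.4, 57.9 and 46.9 CPM in heated WT leaves, against 8.79, 11.9 and 12.3 CPM in WT control leaves. Groups were apart in all 3, with log2 fold changes of 4.80 ± 0.23 for TPS11 (edgeR adjusted p = 7.57e-09), 3.76 ± 0.28 for TPS8 (edgeR adjusted p = 5.81e-07) and 2.19 ± 0.19 for TPS9 (edgeR adjusted p = 2.80e-06). TPS1 (AT1G78580), the active synthase itself, had 18.6, 18.3 and 19.4 CPM in heated WT leaves, against 25.1, 27.7 and 26.7 CPM in WT control leaves. TPS1 fell by 0.49 ± 0.13 (SE) on the log2 scale (edgeR adjusted p = 0.014), but the call was lost without WT heat 2 or WT control 2 (adjusted p up to 0.063). All 5 tested Kelch F-box genes, adaptors known to mark phenylalanine ammonia-lyase or cytokinin response regulators for breakdown, rose, with a median of 2.88 (2.09 under library totals). AT2G44130 had 37.4, 44.3 and 35.95 CPM in heated WT leaves, against 1.15, 2.47 and 0.978 CPM in WT control leaves. AT1G80440 had 16.97, 23.9 and 20.2 CPM in heated WT leaves, against 0.879, 1.33 and 0.622 CPM in WT control leaves. Both are also members of the sugar-repressed list, with log2 fold changes of 4.57 ± 0.33 for AT2G44130 (edgeR adjusted p = 4.18e-07) and 4.28 ± 0.27 for AT1G80440 (edgeR adjusted p = 1.02e-07). Of 20 nitrogen genes 4 were called higher and 4 lower. Among nitrogen genes the lower count was 1 without WT control 1 and 2 without WT heat 2, WT heat 3, WT control 2 or WT control 3; BT2 (AT3G48360), a nutrient-responsive scaffold protein, rose by 3.41 ± 0.29 (edgeR adjusted p = 2.25e-06), and NLP7 (AT4G24020), a regulator of the nitrate response, by 1.13 ± 0.14 (edgeR adjusted p = 5.10e-05).

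Regulators of stress and light split by family. Stress NAC factors rose in 9 of 19 tested members and fell in 1, with a median of 1.19 (0.44 under library totals). Among stress NAC factors the lower count was 0 without WT heat 1, WT heat 2, WT control 1 or WT control 2. Of all 33 tested genes annotated as NAC factors 11 rose and 1 fell (median 0.42, -0.33 under library totals). With 1 WT library left out 7 to 10 of the 33 rose and 0 to 2 fell. ATAF1 (AT1G01720), a NAC factor of drought and wounding responses, had 519.9, 604 and 409 CPM in heated WT leaves, against 21.02, 21.5 and 21.8 CPM in WT control leaves. RD26 (AT4G27410), induced by dehydration and abscisic acid, had 16.6, 17.1 and 21.4 CPM in heated WT leaves, against 2.77, 1.75 and 0.444 CPM in WT control leaves. The control libraries of ATAF1 were within 1 CPM of each other and far below the heated ones, with log2 fold changes of 4.57 ± 0.21 for ATAF1 (edgeR adjusted p = 5.15e-09) and 3.37 ± 0.38 for RD26 (edgeR adjusted p = 3.00e-05). NAP (AT1G69490), a NAC factor of leaf senescence, rose by 3.05 ± 0.52 (edgeR adjusted p = 9.63e-04). ERF and DREB factors rose in 10 of 32 (median 0.47, -0.33 under library totals) and fell in 2. Their higher count was 6 without WT heat 1 or WT control 1, and their lower count 1 without WT control 1. The steepest was DREB2A (AT5G05410), a heat and drought regulator, at 128, 144 and 143 CPM in heated WT leaves, against 0.811, 0.422 and 0.0889 CPM in WT control leaves. DREB2A rose by 7.99 ± 0.37 (SE) on the log2 scale (edgeR adjusted p = 6.05e-09). Of 31 WRKY factors 5 rose and 2 fell, near the background. Among WRKY factors the higher count was 2 without WT control 2 and 3 without WT heat 2 and the lower count 0 without WT heat 3, WT control 1 or WT control 2 and 1 without WT heat 1 or WT heat 2; WRKY39 (AT3G04670) had 28.3, 33.3 and 30.2 CPM in heated WT leaves, against 9.74, 9.09 and 10.2 CPM in WT control leaves. WRKY39 rose by 1.66 ± 0.14 (SE) on the log2 scale (edgeR adjusted p = 2.46e-06).

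Clock genes and B-box factors moved in opposite ways within their families. 11 of 22 clock genes rose and 2 fell (median 0.71, -0.03 under library totals). EPR1 (AT1G18330), a MYB-like clock factor, had 27.8, 34.98 and 59.2 CPM in heated WT leaves, against 4.06, 3.31 and 3.56 CPM in WT control leaves. PRR7, whose promoter is shown above, had 26.5, 27.8 and 53.8 CPM in heated WT leaves, against 4.33, 6.02 and 5.24 CPM in WT control leaves. In both the 3 heated libraries were above the controls, with WT heat 3 the highest, with log2 fold changes of 3.46 ± 0.32 for EPR1 (edgeR adjusted p = 4.69e-06) and 2.78 ± 0.37 for PRR7 (edgeR adjusted p = 1.31e-04). LHY (AT1G01060), a morning-phased factor, had 107, 105 and 103 CPM in heated WT leaves, against 248, 227 and 232 CPM in WT control leaves. LHY fell by 1.16 ± 0.13 (SE) on the log2 scale (edgeR adjusted p = 2.00e-05). Since no label fixes the control leaves to the same clock time, heat and time of day cannot be told apart for these genes. B-box zinc finger proteins, light-signalling regulators, were called higher in 8 of 25 and lower in as many. Among B-box genes the higher count was 4 without WT control 1 and 5 without WT heat 3, and the lower count 5 without WT heat 2 or WT control 2. LZF1 (AT1G78600) had 12.03, 17.3 and 15.8 CPM in heated WT leaves, against 1.22, 0.843 and 0.711 CPM in WT control leaves. LZF1 rose by 3.90 ± 0.26 (SE) on the log2 scale (edgeR adjusted p = 2.07e-07). By contrast BBX32 (AT3G21150) had 6.15, 4.95 and 3.34 CPM in heated WT leaves, against 24.2, 23.9 and 31.3 CPM in WT control leaves. BBX32 fell by 2.44 ± 0.24 (SE) on the log2 scale (edgeR adjusted p = 1.05e-05).

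Several transcription factors fell, among them regulators of greening and leaf growth. Of 23 chloroplast development regulators tested 6 were called lower and 2 higher, with a median of -0.32 (-1.07 under library totals). Their higher count was 1 whichever WT library was left out. CGA1 (AT4G26150), a GATA factor that promotes chloroplast development, had 2.81, 2.402 and 4.01 CPM in heated WT leaves, against 23.7, 16.99 and 18.9 CPM in WT control leaves. Its close relative GNC (AT5G56860) had 8.29, 8.56 and 10.8 CPM in heated WT leaves, against 29.3, 26.98 and 21.1 CPM in WT control leaves. Neither gene overlapped between groups, with log2 fold changes of -2.61 ± 0.30 for CGA1 (edgeR adjusted p = 3.34e-05) and -1.46 ± 0.25 for GNC (edgeR adjusted p = 0.0012). MYC4 (AT4G17880), a jasmonate-responsive bHLH factor that also drives glucosinolate genes, had 5.48, 5.104 and 6.94 CPM in heated WT leaves, against 28.4, 29.995 and 17.3 CPM in WT control leaves. MYC4 fell by 2.07 ± 0.29 (SE) on the log2 scale (edgeR adjusted p = 2.26e-04). bHLH factors as annotated were called lower in 14 of 71 and higher in 4. Among bHLH factors the higher count was 1 without WT control 2 and 2 without WT heat 1 or WT heat 3. In the Pfam scan 8 of 23 GATA factors (median -0.70) and 8 of 18 TCP factors (median -0.57) were called lower and none higher. TCP10 (AT2G31070), a TCP regulator of leaf shape named after its values were seen, had 5.08, 3.603 and 4.18 CPM in heated WT leaves, against 15.7, 13.2 and 12.2 CPM in WT control leaves. TCP10 fell by 1.64 ± 0.18 (SE) on the log2 scale (edgeR adjusted p = 2.33e-05). BLH6 (AT4G34610), a homeodomain factor of secondary walls, had 4.01, 4.65 and 6.27 CPM in heated WT leaves, against 21.7, 26.5 and 16.3 CPM in WT control leaves. BLH6 fell by 2.06 ± 0.25 (SE) on the log2 scale (edgeR adjusted p = 5.92e-05).

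Photoreceptors and their partners split as well, with 4 of 17 genes of the phytochrome list higher and 4 lower. PHYB (AT2G18790), the main red light receptor of leaves and also a temperature sensor, had 32.1, 26.9 and 22.7 CPM in heated WT leaves, against 40.8, 45.2 and 52.4 CPM in WT control leaves. SPA1 (AT2G46340), which helps to break down light-signalling factors, had 33.3, 31.8 and 31.3 CPM in heated WT leaves, against 61.4, 67.2 and 65.2 CPM in WT control leaves. CRY2 (AT1G04400), a blue light receptor, had 47.8, 54.2 and 53.8 CPM in heated WT leaves, against 26.2, 23.1 and 23.02 CPM in WT control leaves. No groups overlapped, with log2 fold changes of -0.76 ± 0.19 for PHYB (edgeR adjusted p = 0.012), -1.0 ± 0.14 for SPA1 (edgeR adjusted p = 2.60e-04) and 1.11 ± 0.14 for CRY2 (edgeR adjusted p = 6.92e-05). ELIP1 (AT3G22840), an early light-induced protein that protects photosystems under excess light, had 111, 99.2 and 55.3 CPM in heated WT leaves, against 8.18, 9.697 and 12.6 CPM in WT control leaves. ELIP1 rose by 3.11 ± 0.28 (SE) on the log2 scale (edgeR adjusted p = 3.97e-06). It was the one member called of 8 in its list, with 3 without WT heat 3 or WT control 3.

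**Figure D3:**
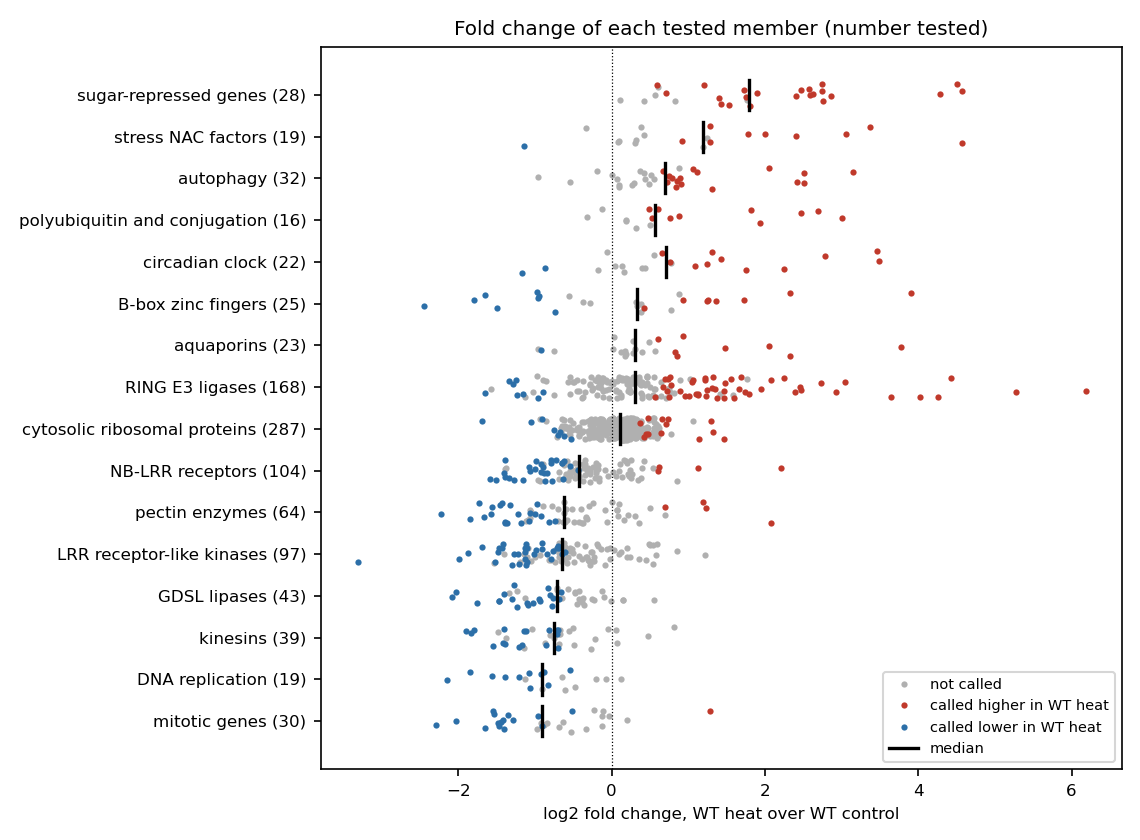
Log2 fold change (WT heat over WT control) of every tested member of 16 families; red and blue points are called higher and lower, grey points were not called, and the black line is the median. Medians run between 1.79 for sugar-repressed genes and -0.91 for mitotic genes, and ribosomal protein genes sit at 0.11.

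Calls among transcripts of the organelle genomes varied with the libraries in the fit. Of 83 tested genes encoded in mitochondria 49 were called higher and none lower, with a median of 0.97, and 0.21 under library totals. Leaving out WT libraries changed that count to 19 without WT heat 1, 20 without WT heat 2, 21 without WT control 1 and 22 without WT control 2. Fits on the libraries with a positive score on that component (WT heat 1, WT heat 2 and WT control 3 among them) and on those with a negative score (WT heat 3, WT control 1 and WT control 2), chosen after seeing the data and with the lone WT library assumed to vary like the other groups, gave 66 and 63 called higher and medians of 0.76 and 0.76. ATMG00170, annotated as a transmembrane protein and nearly identical to ATMG00620, had 19.8, 26.6 and 12.3 CPM in heated WT leaves, against 1.22, 1.69 and 1.24 CPM in WT control leaves. ATMG00170 rose by 3.73 ± 0.34 (SE) on the log2 scale (edgeR adjusted p = 4.01e-06). ATMG01360, the cytochrome oxidase subunit 1 gene, had 2755, 2745 and 1366 CPM in heated WT leaves, against 749, 798 and 1544 CPM in WT control leaves. Its groups overlapped, because WT heat 3 lay below WT control 3. ATMG01360 rose by 1.15 ± 0.37 (SE) on the log2 scale (edgeR adjusted p = 0.037), a call that was lost when WT heat 1, WT heat 2, WT control 1 or WT control 2 was left out (adjusted p up to 0.13).

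In the chloroplast genome 16 of 88 tested genes were called higher and 7 lower, with a median of 0.10 (-0.63 under library totals). Fits on libraries of positive and negative score gave medians of 0.23 and 0.39. Among chloroplast genes the higher count was 2 without WT heat 1, WT heat 2, WT control 1 or WT control 2, 28 without WT heat 3 and 30 without WT control 3, and the lower count 1 without WT heat 1, WT heat 2 or WT control 1, 2 without WT control 2 and 4 without WT control 3. psbA, which codes for the D1 protein of photosystem II, took 38.7%, 37.0% and 26.6% of reads in heated WT leaves and 23.7%, 22.0% and 32.6% in WT control leaves. WT heat 3 thus lay below WT control 3, and psbA (ATCG00020) was not called (log2 fold change 1.15 ± 0.42 SE, edgeR adjusted p = 0.063). ATCG00270, the gene of the photosystem II protein D2, had 21249, 21132 and 14598 CPM in heated WT leaves, against 8048, 8788 and 11728 CPM in WT control leaves. ATCG00270 rose by 1.0 ± 0.24 (SE) on the log2 scale (edgeR adjusted p = 0.01). ATCG01010, which codes for a subunit of the NADH dehydrogenase-like complex, had 471, 483 and 448 CPM in heated WT leaves, against 829, 659 and 1052 CPM in WT control leaves. ATCG01010 fell by 0.86 ± 0.19 (SE) on the log2 scale (edgeR adjusted p = 0.0063). Neither gene overlapped between groups. The part of the library component in these calls was not tested beyond the fits named.

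Nuclear photosystem and light-harvesting genes were called higher in 12 of 42, with a median of 0.48 (-0.27 under library totals). Among photosystem genes the higher count was 4 without WT heat 2, 5 without WT heat 1, WT control 1 or WT control 2 and 19 without WT control 3, and the fits on libraries of positive and negative score gave 19 and 21. LHB1B2 (AT2G34420), a light-harvesting protein of photosystem II, had 3959, 3950.2 and 2603 CPM in heated WT leaves, against 1065, 1059.8 and 1869 CPM in WT control leaves. LHB1B2 rose by 1.40 ± 0.28 (SE) on the log2 scale (edgeR adjusted p = 0.0034). The member with the highest CPM, CAB1 (AT1G29930), had 9629, 8741 and 5085 CPM in heated WT leaves, against 4462, 4738 and 8265 CPM in WT control leaves, with overlapping groups. CAB1 was not called (log2 fold change 0.43 ± 0.32 SE, edgeR adjusted p = 0.37). Reads of this gene and its near-identical neighbours may be split. Calvin cycle genes were near or below the background, with 1 higher and 1 lower of 21 by edgeR and 3 called by DESeq2. Among Calvin cycle genes the higher count was 0 without WT heat 1, WT heat 2, WT control 1 or WT control 2, and the lower count 0 without WT heat 2, WT heat 3 or WT control 2. The small Rubisco subunit RBCS1A (AT1G67090) had 4385, 3783 and 2226 CPM in heated WT leaves, against 3219.7, 2931 and 5419.9 CPM in WT control leaves, again overlapping. RBCS1A was not called (log2 fold change -0.15 ± 0.34 SE, edgeR adjusted p = 0.79).

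**Figure D4:**
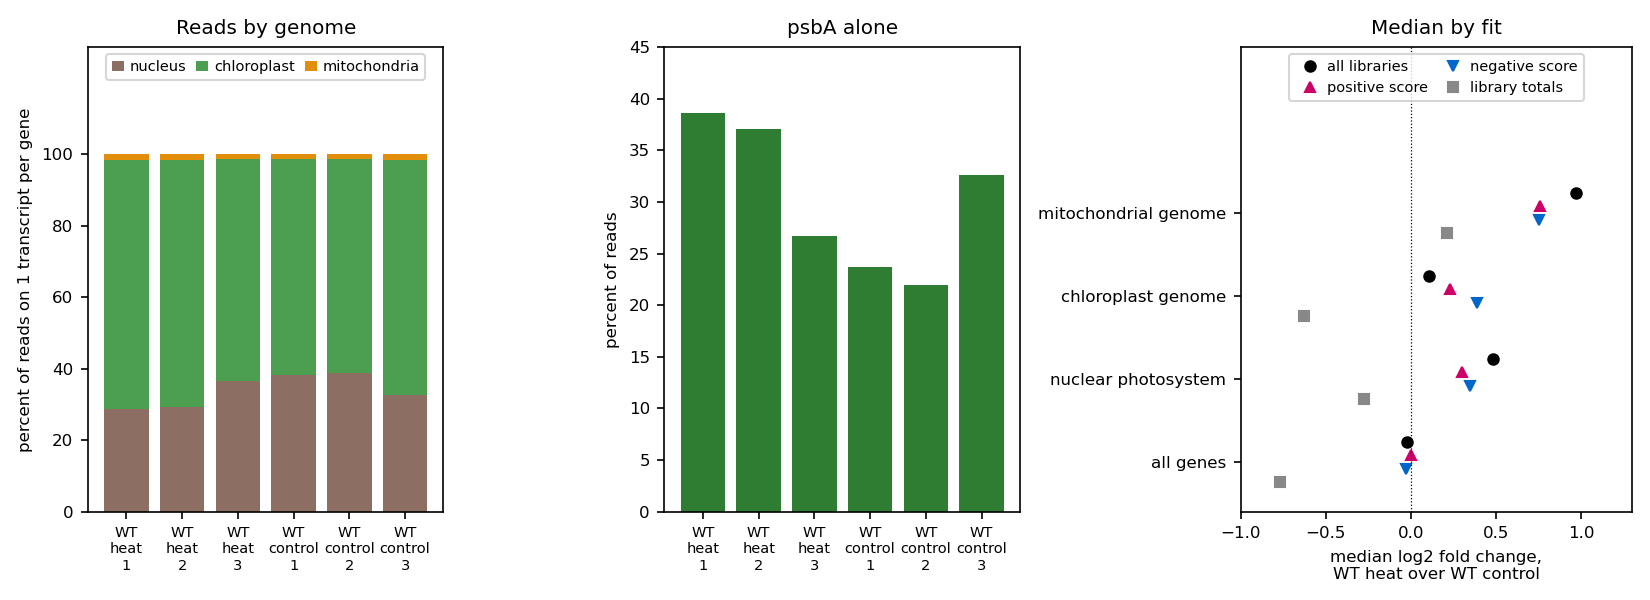
Left, percent of reads from each genome in the 6 WT libraries, WT heat before WT control; middle, percent of reads on psbA alone; right, median log2 fold change (WT heat over WT control) of 3 gene sets and of all genes in the fit of all libraries, in fits on libraries with a positive or a negative component score, and under library totals. psbA took 26.6% in WT heat 3 and 32.6% in WT control 3, and the chloroplast and photosystem medians fall below 0 only under library totals.

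Many genes of DNA replication and cell division fell. Leaf growth depends on dividing cells in the youngest tissue, and DNA is copied by origin-licensing factors, helicases and polymerases before mitosis. 11 of 19 replication genes fell (median -0.90). Among replication genes the lower count was 7 without WT heat 1. MCM5 (AT2G07690), a subunit of the replicative helicase, had 5.48, 3.303 and 3.76 CPM in heated WT leaves, against 8.11, 10.7 and 8.18 CPM in WT control leaves. ICU2 (AT5G67100), the catalytic subunit of DNA polymerase alpha, had 4.68, 4.504 and 4.85 CPM in heated WT leaves, against 10.5, 12.5 and 10.2 CPM in WT control leaves. All heated libraries lay below all control libraries in both, with log2 fold changes of -1.08 ± 0.25 for MCM5 (edgeR adjusted p = 0.0069) and -1.21 ± 0.19 for ICU2 (edgeR adjusted p = 4.38e-04). 15 of 30 mitotic cyclins and kinases fell and 1 rose (median -0.91). Among mitotic genes the higher count was 0 without WT heat 1, WT heat 2 or WT control 2. CYCA1;1 (AT1G44110), a mitotic cyclin, had 2.005, 1.05 and 0.502 CPM in heated WT leaves, against 5.27, 5.3003 and 4.53 CPM in WT control leaves. CYCA1;1 fell by 2.03 ± 0.33 (SE) on the log2 scale (edgeR adjusted p = 7.26e-04). 17 of 39 kinesins, the motors that move along microtubules, fell (median -0.75). Among kinesins the lower count was 4 without WT control 2, 5 without WT heat 1, 6 without WT control 1 and 7 without WT heat 2. HIK (AT1G18370), the kinesin that builds the new cell plate, had 2.005, 2.85 and 2.42 CPM in heated WT leaves, against 10.1, 12.8 and 5.24 CPM in WT control leaves. HIK fell by 1.90 ± 0.40 (SE) on the log2 scale (edgeR adjusted p = 0.0041). Core and linker histones fell in 11 and rose in 3 of 38. Among histones the lower count was 5 without WT heat 1 and 6 without WT heat 2 or WT control 2 and the higher count 6 without WT control 3. In fits on libraries of positive and negative component score the medians were -0.63 and -1.07 for replication genes. They were -0.79 and -0.91 for mitotic genes and -0.58 and -0.67 for kinesins.

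Promoters of a cyclin, a kinesin and a helicase subunit are shown because their families held known cell cycle motifs more often than the genome. Capitals mark the M-phase element CNAACGG in CYCA1;1 and HIK and the E2F site TTTNNCGC in MCM5, each on either strand. The windows, again the 250 bases before the gene start in RefSeq's TAIR10.1 and all on the minus strand, are chr1:16777353-16777602 for CYCA1;1, chr1:6324379-6324628 for HIK and chr2:3527501-3527750 for MCM5.
CYCA1;1: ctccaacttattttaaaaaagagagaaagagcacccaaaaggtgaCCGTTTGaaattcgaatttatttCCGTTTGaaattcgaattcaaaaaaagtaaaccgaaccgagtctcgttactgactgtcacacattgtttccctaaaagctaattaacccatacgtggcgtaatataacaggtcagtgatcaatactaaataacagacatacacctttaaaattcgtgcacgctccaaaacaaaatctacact
HIK: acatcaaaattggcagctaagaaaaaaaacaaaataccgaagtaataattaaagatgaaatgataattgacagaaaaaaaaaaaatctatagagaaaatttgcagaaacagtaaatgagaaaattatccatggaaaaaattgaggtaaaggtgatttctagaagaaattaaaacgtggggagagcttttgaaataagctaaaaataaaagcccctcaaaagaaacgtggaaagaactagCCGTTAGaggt
MCM5: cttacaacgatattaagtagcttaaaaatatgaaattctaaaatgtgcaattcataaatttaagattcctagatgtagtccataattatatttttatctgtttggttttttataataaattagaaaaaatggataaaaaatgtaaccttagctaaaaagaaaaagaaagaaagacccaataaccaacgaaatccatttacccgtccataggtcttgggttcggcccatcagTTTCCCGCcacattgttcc

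The M-phase element was present in 9 of 30 promoters of mitotic genes (30%) and 11 of 39 of kinesins (28.2%), against 5.2% of all. The E2F site was present in 8 of 19 promoters of replication genes (42.1%), against 5.99% of all. Over all genes that fell the shares were 6.4% and 6.58%. The evening element AAAATATCT was in 4 of 22 clock promoters (18.2%), against 2.43% of all. It was also in 3 of 16 promoters of dehydration genes (18.8%) and 1 of 5 of Kelch F-box genes. The TATCCA element, known from sugar-starved cereal cells, was in 6 of 28 promoters of sugar-repressed genes (21.4%). It was in 18.5% of promoters of all genes that rose, 13.3% of those that fell and 14.4% of all. In the other families searched its share ran between 7.22% (leucine-rich repeat kinases) and 20% (Kelch F-box genes). The W-box TTGACC of WRKY factors was in 11.9% of promoters of genes that rose, 12.4% of those that fell and 11.9% of all.

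In families that loosen and remodel the cell wall more members were called lower than higher. Pectin enzymes fell in 21 and rose in 4 of 64 (median -0.62). Among pectin enzymes the lower count was 12 without WT heat 2 and 13 without WT control 2. AT3G49220, a pectin methylesterase by annotation, had 18.2, 14.1 and 15.3 CPM in heated WT leaves, against 58.3, 51.5 and 62.4 CPM in WT control leaves. PME44 (AT4G33220), another, had 6.15, 5.404 and 9.11 CPM in heated WT leaves, against 19.7, 27.2 and 23.6 CPM in WT control leaves. The groups were separate in both, with log2 fold changes of -1.84 ± 0.14 for AT3G49220 (edgeR adjusted p = 8.18e-07) and -1.73 ± 0.22 for PME44 (edgeR adjusted p = 1.12e-04). Subtilases, secreted proteases some of which process wall proteins, fell in 9 of 25 (median -0.64), with SBT1.3 (AT5G51750) at 4.41, 3.903 and 8.53 CPM in heated WT leaves, against 21.6, 26.2 and 16.7 CPM in WT control leaves. SBT1.3 fell by 1.87 ± 0.34 (SE) on the log2 scale (edgeR adjusted p = 0.0014). Xyloglucan endotransglucosylases, which cut and rejoin wall chains, fell in 5 of 19, among them XTH6 (AT5G65730) with 36.4, 33.3 and 50.6 CPM in heated WT leaves, against 83.5, 77.999 and 71.1 CPM in WT control leaves. XTH6 fell by 0.94 ± 0.21 (SE) on the log2 scale (edgeR adjusted p = 0.0056). EXPA1 (AT1G69530), an expansin that loosens walls in growing cells, had 24.2, 31.1 and 24.5 CPM in heated WT leaves, against 102, 140.4 and 178 CPM in WT control leaves. EXPA1 fell by 2.39 ± 0.25 (SE) on the log2 scale (edgeR adjusted p = 1.57e-05).

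GDSL lipases, secreted esterases of which some build the cutin layer, fell in 20 of 43 with none higher, a lower share of 46.5% beside the 10.3% of all genes and a median of -0.71. AT2G04570 had 2.14, 1.95 and 2.51 CPM in heated WT leaves, against 7.03, 8.79 and 7.73 CPM in WT control leaves. AT2G04570 fell by 1.75 ± 0.22 (SE) on the log2 scale (edgeR adjusted p = 9.56e-05). The member with the highest CPM, ESM1 (AT3G14210), which shifts glucosinolate breakdown toward isothiocyanates, had 156, 143 and 146 CPM in heated WT leaves, against 262, 258 and 244 CPM in WT control leaves. ESM1 fell by 0.78 ± 0.15 (SE) on the log2 scale (edgeR adjusted p = 0.0022). In both genes each heated library was below each control library. Genes of cuticle, wax and cutin fell in 7 of 26. Among cuticle genes the lower count was 3 without WT heat 3 and 4 without WT heat 2.

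Among surface and immune receptors more genes were called lower than higher. Receptor-like kinases with leucine-rich repeats, which sense peptides, hormones and microbial patterns, were called lower in 32 of 97 and higher in none, with a median of -0.65. Among these kinases the higher count was 1 without WT heat 3 and 2 without WT control 3. AT5G67200 had 0.401, 0.4504 and 1.59 CPM in heated WT leaves, against 11.2, 9.998 and 9.33 CPM in WT control leaves, 1 of the 9 genes that fell by at least 3 on the log2 scale. AT5G67200 fell by 3.31 ± 0.36 (SE) on the log2 scale (edgeR adjusted p = 2.49e-05). AT1G12460 had 5.48, 6.305 and 4.77 CPM in heated WT leaves, against 13.4, 12.3 and 21.3 CPM in WT control leaves. AT1G12460 fell by 1.49 ± 0.26 (SE) on the log2 scale (edgeR adjusted p = 0.0011). The heated libraries of both kinases stood below their controls. NB-LRR immune receptors, which sense pathogen effectors inside cells, fell in 28 and rose in 4 of 104. Among NB-LRR genes the lower count was 16 without WT control 1 and 17 without WT heat 2 or WT control 2, and the higher count 1 without WT heat 2 or WT control 2 and 2 without WT heat 1. AT1G63360 had 6.55, 5.25 and 7.94 CPM in heated WT leaves, against 18.5, 19.2 and 15.5 CPM in WT control leaves. AT1G63360 fell by 1.39 ± 0.17 (SE) on the log2 scale (edgeR adjusted p = 6.58e-05). By contrast AT1G66090, a receptor-type protein without the repeats, had 39.6, 34.2 and 30.02 CPM in heated WT leaves, against 8.25, 7.89 and 6.04 CPM in WT control leaves. AT1G66090 rose by 2.21 ± 0.24 (SE) on the log2 scale (edgeR adjusted p = 2.16e-05). Of 18 cysteine-rich receptor-like kinases 5 fell, among them CRK40 (AT4G04570) with 11.4, 11.4 and 10.2 CPM in heated WT leaves, against 34.1, 28.4 and 25.8 CPM in WT control leaves. CRK40 fell by 1.41 ± 0.16 (SE) on the log2 scale (edgeR adjusted p = 3.38e-05). The count was 3 without WT control 2.

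Families of specialised metabolism differed in direction. Cytochromes P450, oxygenases of many pathways, were called lower in 28 and higher in 9 of 115. CYP79B2 (AT4G39950), which starts indole glucosinolate and auxin precursor synthesis, had 2.94, 4.504 and 5.02 CPM in heated WT leaves, against 28.7, 22.5 and 11.5 CPM in WT control leaves. CYP79B2 fell by 2.28 ± 0.36 (SE) on the log2 scale (edgeR adjusted p = 6.07e-04). CYP81D8 (AT4G37370) ran the other way, with 26.6, 28.2 and 21.3 CPM in heated WT leaves, against 2.97, 4.698 and 0.978 CPM in WT control leaves. CYP81D8 rose by 3.06 ± 0.37 (SE) on the log2 scale (edgeR adjusted p = 5.48e-05). UDP-glycosyltransferases, which attach sugars to small molecules, were split into 15 higher and 18 lower of 80. Among glycosyltransferases the lower count was 11 without WT control 2. UGT74F2 (AT2G43820), a salicylic acid glucosyltransferase, had 29.9, 24.2 and 33.7 CPM in heated WT leaves, against 9.53, 5.42 and 2.49 CPM in WT control leaves. UGT74F2 rose by 2.31 ± 0.34 (SE) on the log2 scale (edgeR adjusted p = 3.37e-04). UGT84A2 (AT3G21560), which glucosylates sinapic acid, had 7.08, 4.504 and 6.35 CPM in heated WT leaves, against 17.3, 18.01 and 14.3 CPM in WT control leaves. UGT84A2 fell by 1.44 ± 0.20 (SE) on the log2 scale (edgeR adjusted p = 2.43e-04). Sulfate assimilation was mixed, with 7 higher and 4 lower of 27. Among sulfate genes the lower count was 2 without WT control 2. AK3 (AT3G02020), the first enzyme of the aspartate family of amino acids, fell (log2 fold change -2.06 ± 0.20 SE, edgeR adjusted p = 7.59e-06).

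Glucosinolates, the sulfur-rich defence compounds of the cabbage family, had lower calls mainly in the aliphatic branch. Aliphatic glucosinolate genes fell in 13 of 28 and rose in 1, with a median of -0.53. MYB28 (AT5G61420), the main activator of this pathway, had 3.74, 3.002 and 3.76 CPM in heated WT leaves, against 14.1, 18.01 and 15.9999 CPM in WT control leaves. CYP79F1 (AT1G16410), its first dedicated oxygenase, had 8.55, 3.75 and 6.94 CPM in heated WT leaves, against 33.9, 23.1 and 15.7 CPM in WT control leaves. Both kept the heated libraries below the controls, with log2 fold changes of -2.14 ± 0.19 for MYB28 (edgeR adjusted p = 3.40e-06) and -1.89 ± 0.36 for CYP79F1 (edgeR adjusted p = 0.0021). Indole glucosinolate and camalexin genes fell in 3 of 17 and rose in none. MYB34 (AT5G60890), the activator of that branch, had 1.203, 1.201 and 2.68 CPM in heated WT leaves, against 10.1, 9.28 and 5.69 CPM in WT control leaves. MYB34 fell by 2.15 ± 0.35 (SE) on the log2 scale (edgeR adjusted p = 6.66e-04).

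Flavonoid and anthocyanin genes fell in 11 of 23 and rose in none, with a median of -0.97. Among flavonoid genes the higher count was 1 without WT heat 3 or WT control 3. DFR (AT5G42800), which leads to anthocyanins, had 0.936, 0.6005 and 2.01 CPM in heated WT leaves, against 18.2, 6.204 and 4.36 CPM in WT control leaves. DFR fell by 2.79 ± 0.63 (SE) on the log2 scale (edgeR adjusted p = 0.0065). UGT78D1 (AT1G30530), which attaches rhamnose to flavonols, had 26.6, 24.5 and 24.3 CPM in heated WT leaves, against 42.3, 39.2 and 38.3 CPM in WT control leaves. UGT78D1 fell by 0.66 ± 0.16 (SE) on the log2 scale (edgeR adjusted p = 0.0086). TT4 (AT5G13930), the entry enzyme of the pathway, had 79.3, 54.6 and 44.1 CPM in heated WT leaves, against 74.7, 54.3 and 81.9 CPM in WT control leaves, with overlapping groups. TT4 was not called (log2 fold change -0.24 ± 0.26 SE, edgeR adjusted p = 0.54).

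Several large or basic families had shares called near or below the background. Of 287 genes annotated as cytosolic ribosomal proteins 13 rose and 8 fell, with a median of 0.11. Among ribosomal protein genes the higher count was 3 without WT control 2, 4 without WT heat 1, WT heat 2 or WT control 1 and 26 without WT control 3, and the lower count 4 without WT control 2. Fatty acid desaturases had none called of 15 by edgeR or DESeq2, and none at an unadjusted p below 0.05 by edgeR. Rapid touch, cold and calcium genes had none called of 18 by either tool and 4 at an unadjusted p below 0.05, while the lower count was 1 without WT control 3. Of 36 MAP kinase cascade genes 4 rose and 4 fell. Among MAP kinase genes the higher count was 2 without WT heat 3 or WT control 2 and the lower count 2 without WT heat 1, WT control 1 or WT control 2. By contrast pentatricopeptide repeat proteins, which process organelle RNA, fell in 30 and rose in 4 of 183, with a median of -0.38. Their lower share was 16.4%, beside the 10.3% of all genes. Among pentatricopeptide genes the lower count was 16 without WT control 2, and the higher count 7 without WT heat 3 or WT control 3.

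In atcyp18-2 leaves, whose libraries are separate from the WT ones, 2812 genes (16.9%) were called higher and 2545 (15.3%) lower after heat. Of the genes that rose in WT, 1873 also rose in atcyp18-2, which is 85.1% of the WT list and 66.6% of the atcyp18-2 list. Of the genes that fell in WT, 1316 also fell there, 77.0% of the WT list and 51.7% of the atcyp18-2 list. The difference between the heat responses was called for 0 genes by edgeR, with 910 genes at an unadjusted p below 0.05, and for 17 by DESeq2. Sulfate assimilation had 7 higher and 4 lower of 27 in WT, beside 1 and 5 in atcyp18-2. APR1 (AT4G04610), a reductase of sulfate assimilation, had log2 fold changes of 1.15 in WT and -0.73 in atcyp18-2, and the difference was not called (WT minus atcyp18-2 1.88, edgeR adjusted p = 0.3). SHM7 (AT1G36370), a serine hydroxymethyltransferase that feeds methyl groups to methionine, had 2.24 in WT and 0.51 in atcyp18-2 (difference 1.73, edgeR adjusted p = 0.54). In WT the gene had 79.4, 87.5 and 95.99 CPM in heated WT leaves, against 18.3, 27.2 and 9.87 CPM in WT control leaves, with no overlap.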

How the data were processed

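RNA was measured by sequencing in leaves of 4 groups of 3 libraries. The authors' deposited table holds whole-number counts per transcript, raw per the file headers. The submitters' processing notes name HTSeq and DESeq but neither their versions nor their roles. Aligner, genome build and release of the annotation (from Phytozome, per the file headers) are not stated in what was used here. The lowest count of the table is 1 and no row is at 1 in all libraries, so each count carries 1 added read. The test used counts as deposited, whereas read numbers and CPM printed here have 1 read subtracted. CPM were also scaled by the TMM factor of each library, as in the test described next. The factors ran between 0.6844 and 1.0214 in WT heat and between 1.084 and 1.5065 in WT control. CPM over all genes therefore summed to 1458828 in WT heat 1 and 669915 in WT control 1. CPM are thus not shares of the raw reads, and statements on overlap between groups rest on this scale. Of 51792 transcript rows, the annotated transcript with the largest sum over the 12 libraries stood for each of 23160 genes. The design had assumed counts per gene. A further 12 columns of per-sample values were not used. Whether counting used strand is not stated, so overlapping and antisense genes cannot be told apart, and near-identical copies are uncertain.

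Differences were tested in R 4.3.3 by edgeR 4.0.16 (quasi-likelihood test, TMM scaling, filterByExpr by group, 1 fit of 12 libraries, 8 residual degrees of freedom), and calls were made below 0.05 after Benjamini-Hochberg adjustment over 16629 genes. DESeq2 1.42.0 was an alternative. The standard error is the size of the log2 fold change over the root of the F value. Against a group without reads the fold is a bound from a floor of 3 reads. Groups with 1 to 3 reads give a ratio with an exact binomial 95% interval. Intervals and floors cover counting error only. The scripts were tested on simulated data. Of 99 genes changed by 1 on the log2 scale 30.3% were called there, and of 100 changed by 2, 93%. Among the unchanged genes 7 were called. The simulated counts were drawn independently, without the component of variation within groups. Chi-square per degree of freedom was 2.691 between WT heat 1 and 2 and 5.53 between WT control 1 and 2. Pairs within a group that held WT heat 3 or WT control 3 gave 37.8 to 51.8. No WT library was thus a copy of another of its group, but whether any came from the same RNA cannot be told.

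The gene families come from 62 lists by locus identifier and 53 sets by words of the annotation, which can catch unrelated genes, and Pfam domains were taken from the deposited annotation. The lists and families were chosen with earlier results of these data known. Lists were counted without loci marked for removal. Sets for chloroplast import and germin-like proteins were left out, since their words also matched unrelated ones. Named genes are up to 3 called members of a list with the largest rise and 3 with the largest fall at a mean of at least 5 CPM, the member with the highest CPM, and outside the heat shock lists the 20 largest rises and falls at a mean of at least 10 CPM without overlap and the 10 called genes with the highest CPM in each direction. Genes named in other ways, ATG8F, ATG8H, ASN1 and KIN10 among them, were chosen after their values were seen. Symbols and the 250 bases before gene starts come from RefSeq (TAIR10.1), in which 22951 genes matched by locus identifier and 16457 of 16458 tested nuclear genes had a promoter.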

Additional observations from a re-analysis of the deposited data

How the results depend on the processing

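Counts of calls moved with scaling, with the library component and with the threshold. Library totals without TMM gave 799 higher and 7498 lower genes in WT and 1010 and 7406 in atcyp18-2. The score of each library on the within-group component as a covariate gave 3861 and 3611 in WT, 4384 and 4246 in atcyp18-2, and 347 genes whose heat response differed between genotypes, against none without it. The same difference was called for 17 genes by DESeq2 and for 98 in the fit on 7 libraries with a positive component score, a subset chosen after seeing the data. A stricter call, with an adjusted p of at most 0.01 and a change of at least 1 on the log2 scale, left 1154 and 548 genes in WT and 1514 and 1075 in atcyp18-2. Without 1 WT library the WT counts ranged between 1609 and 2267 higher and between 1036 and 1708 lower. The causes of these moves were not tested, except that the stricter call keeps fewer genes by construction.

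Of the 133 genes named, 126 were called, and KIN10 alone changed sign with a call, at -0.52 under library totals (edgeR adjusted p = 0.03). DESeq2 left 131 of 133 on the same side of the threshold, the covariate 129, library totals 119 and the stricter call 120. Deviations from the group means correlated at -0.294, -0.316 and -0.649 between WT libraries of the same number, for numbers 1, 2 and 3. The within-group component set number 3 apart in both WT groups, with scores of -0.41 in WT heat 3 and 0.42 in WT control 3. These correlations therefore cannot decide whether numbers pair the libraries. A replicate block gave 1818 higher and 1224 lower genes in WT, and no library correlated best with its own number.

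Depth limits low genes most. Nuclear genes held 2732354 to 4275780 reads per WT library, and 6531 genes were below the filter. A gene that was not called is not shown to be unchanged.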

Other observations

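Some hormone and lipid genes of lists not yet described moved as well. Several hormone lists had few calls. Of 27 jasmonate genes 2 rose, of 15 ethylene genes 2 rose, and brassinosteroid genes had 1 higher and 2 lower of 16. Salicylic acid and defence genes had 1 higher and 2 lower of 19, and 3 of 29 auxin repressors and response factors fell. By contrast GH3 enzymes, which conjugate auxin, rose in 4 and fell in 3 of 11 (median -0.01, -0.76 under library totals). Their lower count was 0 to 2 with 1 WT library left out. With 1 library left out, the jasmonate higher count was 1 without WT heat 1, WT heat 2, WT heat 3, WT control 2 or WT control 3, and the ethylene higher count was 1 without WT heat 1, WT heat 2, WT control 1 or WT control 2. The brassinosteroid higher count was 2 without WT control 3 and its lower count 1 without WT heat 1, WT heat 2, WT control 1 or WT control 2, and the salicylic acid lower count was 1 without WT heat 1, WT heat 2 or WT control 1 and 4 without WT control 3. Of 11 genes of gibberellin metabolism and DELLA repressors, which hold back growth, 3 rose and 3 fell. GAI (AT1G14920), a DELLA repressor, had 4.81, 3.603 and 4.35 CPM in heated WT leaves, against 12.2, 13.3 and 25.9 CPM in WT control leaves, and RGL1 (AT1G66350), another, had 4.01, 3.303 and 3.26 CPM in heated WT leaves, against 10.9, 10.3 and 17.4 CPM in WT control leaves. The related RGA1 (AT2G01570) had 36.8, 36.6 and 28.4 CPM in heated WT leaves, against 35.2, 40.5 and 61.8 CPM in WT control leaves, with overlapping groups and no call (log2 fold change -0.43 ± 0.25 SE, edgeR adjusted p = 0.24). GA2OX6 (AT1G02400), an enzyme that inactivates gibberellin, had 6.28, 5.704 and 12.8 CPM in heated WT leaves, against 2.501, 1.75 and 1.16 CPM in WT control leaves. The 3 called genes kept their groups apart, with log2 fold changes of -1.96 ± 0.30 for GAI (edgeR adjusted p = 4.22e-04), -1.82 ± 0.29 for RGL1 (edgeR adjusted p = 5.85e-04) and 2.16 ± 0.39 for GA2OX6 (edgeR adjusted p = 0.0015).

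Cytokinin genes fell in 4 and rose in 2 of 16, the higher count being 1 without WT heat 1, WT heat 2, WT control 1 or WT control 2. CKX6 (AT3G63440), which degrades the hormone, had 7.89, 6.91 and 12.5 CPM in heated WT leaves, against 3.72, 3.61 and 2.58 CPM in WT control leaves. CKX6 rose by 1.46 ± 0.31 (SE) on the log2 scale (edgeR adjusted p = 0.0042). WOL (AT2G01830), a cytokinin receptor, had 2.54, 4.35 and 5.02 CPM in heated WT leaves, against 8.92, 13.3 and 10.4 CPM in WT control leaves. WOL fell by 1.40 ± 0.24 (SE) on the log2 scale (edgeR adjusted p = 0.0011). RR3 (AT2G41310), a response regulator, had 14505, 10920.3 and 5352 CPM in heated WT leaves, against 3192, 2952 and 6834 CPM in WT control leaves, levels otherwise met among organelle and photosynthesis transcripts here. WT heat 3 lay below WT control 3, the order seen for psbA, and the gene was not called (log2 fold change 1.25 ± 0.45 SE, edgeR adjusted p = 0.065). Whether its reads come from an overlapping transcript was not tested.

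Lipid turnover genes rose in 6 and fell in 2 of 18 (median 0.32, -0.45 under library totals), the lower count being 1 without WT heat 1, WT heat 2, WT control 1 or WT control 2. DGAT2 (AT3G51520), which makes storage lipid from diacylglycerol, had 19.8, 27.8 and 14.7 CPM in heated WT leaves, against 3.38, 4.94 and 4.98 CPM in WT control leaves. DGAT2 rose by 2.20 ± 0.27 (SE) on the log2 scale (edgeR adjusted p = 6.21e-05). SDP1 (AT5G04040), a lipase that breaks storage lipid down, had 16.2, 19.8 and 19.6 CPM in heated WT leaves, against 8.52, 8.79 and 9.07 CPM in WT control leaves. SDP1 rose by 1.07 ± 0.17 (SE) on the log2 scale (edgeR adjusted p = 6.43e-04). Genes of opposite steps thus rose side by side.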
